A study of Mus musculus with 2 samples.

Results

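Immunoglobulin heavy chain V segments (Ighv genes) are the first part of an antibody heavy chain gene. The 185 genes whose symbol starts with Ighv were taken from the 32285 genes of the count tables. They were read in colon immune cells of mice recovering from colitis. The library labelled E4BP4 Transgenic (TG) came from mice made to overexpress E4BP4, the transcription factor encoded by Nfil3, in macrophages; the promoter is not given in the sources used here. The other library was Wild Type (WT). Both were C57BL/6 mice aged 8 weeks that drank 2.0% dextran sulfate sodium (DSS), which injures the colon lining, for 7 days and then plain water for 7 days, and were killed on day 14. Live cells bearing CD45, the surface protein of blood-derived cells, were sorted from the colon lamina propria and sequenced from the 5′ end of the RNA with droplet barcodes and unique molecular identifiers (UMIs). There was 1 library per genotype, and the number of mice in each is not given in the sources used here. There is thus no replicate check and no test. All intervals are exact (95%, Clopper-Pearson for shares and Poisson for UMI counts) and cover counting error only. They do not cover differences between mice.

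Each developing B cell joins 1 V segment to a D and a J segment of the heavy chain locus and 1 V to a J segment of a light chain locus. Its descendants keep that choice, so cells of 1 clone share the same heavy and light V genes. Plasma cells are the antibody-secreting descendants and carry large amounts of immunoglobulin RNA. In the gut most of them make IgA, whose heavy chain constant part is encoded by Igha.

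The TG library held 10143 cell barcodes and 58884332 UMIs, and the WT library held 9855 barcodes and 69346746 UMIs. In the deposited macrophage cluster Nfil3 stood at 73.8 CPM (UMI counts scaled to a common library total; interval 65.3 to 83.1) in TG and 84.4 CPM (72.8 to 97.3) in WT, so the label is used here as given and is not borne out by this gene. The libraries shared 142 barcode sequences, 4 of them among the plasma barcodes counted below. A plasma barcode was one with 5% or more of its UMIs on immunoglobulin segments of the heavy, kappa or lambda loci. There were 1461 in TG (14.4% of barcodes) and 1421 in WT (14.4%). Of these, 1037 in TG and 1144 in WT had at least 20 Ighv UMIs, and 1032 and 1143 had 1 Ighv gene with more UMIs than any other. That gene is called the leading gene. Counted barcodes had a median of 21168 UMIs in TG and 23942 in WT, of which 2359 and 3079 were Ighv UMIs. The deposited cell annotation held 15 of the TG and 7 of the WT counted barcodes. Just outside the threshold, 59 TG and 37 WT plasma barcodes had 15 to 19 Ighv UMIs, against 31 TG and 10 WT barcodes with 20 to 24.

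The plasma cell label was borne out by markers summed over all plasma barcodes. Marker levels were not taken separately for barcodes with a low immunoglobulin share. Of 15 plasma cell markers, 14 were at least 2-fold higher in plasma barcodes than in the deposited B cell cluster (cluster 0) in both libraries. Jchain, which links IgA into dimers, stood at 113425 CPM in TG and 115088 CPM in WT plasma barcodes, scaled without immunoglobulin segments. In cluster 0, 13 of 14 B cell markers were at least 2-fold higher than in plasma barcodes. Markers of other cells were present in the plasma barcodes. The summed level of 8 macrophage markers was 1470 CPM in TG and 715 CPM in WT, that of 8 T cell markers 244 and 69.4 CPM, and that of 5 neutrophil markers 134 and 1866 CPM, with none of these markers at 0 in either library. Their part in the results below was not tested.

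The 6 genes below led most plasma barcodes, the first 3 in TG and the next 3 in WT, with Ighv1-26 near the top of both. All 185 genes lie on chromosome 12. Each line gives bases 1 to 150 of the spliced coding sequence from the GENCODE M21 annotation, built on GRCm38 (mm10), read 5′ to 3′. Ighv1-81 is given in lower case, and capitals in the other lines mark bases that differ from Ighv1-81 at the same place.
Ighv1-81: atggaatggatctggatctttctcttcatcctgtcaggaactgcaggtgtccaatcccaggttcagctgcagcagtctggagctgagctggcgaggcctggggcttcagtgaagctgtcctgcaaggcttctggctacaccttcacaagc
Ighv1-53: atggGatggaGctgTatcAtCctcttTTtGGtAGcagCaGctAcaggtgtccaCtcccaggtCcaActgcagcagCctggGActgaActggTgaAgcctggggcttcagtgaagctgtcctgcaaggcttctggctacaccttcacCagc
Ighv1-26: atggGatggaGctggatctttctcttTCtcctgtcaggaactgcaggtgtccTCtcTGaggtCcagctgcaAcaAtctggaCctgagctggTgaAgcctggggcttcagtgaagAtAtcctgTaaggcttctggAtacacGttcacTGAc
Ighv1-64: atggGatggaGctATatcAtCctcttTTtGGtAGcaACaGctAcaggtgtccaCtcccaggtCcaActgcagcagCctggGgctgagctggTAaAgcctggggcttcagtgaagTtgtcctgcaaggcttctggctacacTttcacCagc
Ighv1-39: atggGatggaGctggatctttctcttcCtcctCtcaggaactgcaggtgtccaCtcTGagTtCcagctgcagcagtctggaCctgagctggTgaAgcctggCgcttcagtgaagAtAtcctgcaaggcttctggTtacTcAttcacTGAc
Ighv1-75: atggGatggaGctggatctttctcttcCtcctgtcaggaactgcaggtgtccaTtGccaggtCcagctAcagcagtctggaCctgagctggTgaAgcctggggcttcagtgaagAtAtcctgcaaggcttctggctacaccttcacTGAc
The differing places numbered 24 in Ighv1-53, 22 in Ighv1-26, 27 in Ighv1-64, 21 in Ighv1-39 and 15 in Ighv1-75. All 6 genes are on the minus strand and annotated as V genes rather than pseudogenes. They lie at chr12:115920279-115920712 (Ighv1-81), chr12:115158403-115158835 (Ighv1-53), chr12:114788372-114788805 (Ighv1-26), chr12:115507545-115508031 (Ighv1-64), chr12:114914599-114915032 (Ighv1-39) and chr12:115833950-115834418 (Ighv1-75). Over the coding sequence of 351 bases, Ighv1-81 was 92.9% identical to its nearest relative Ighv1-85. Ighv1-64 was 95.4% identical to Ighv1-53. Ighv1-72 was 99.15% identical to Ighv1-62-3, so its counts could be split between the pair. Somatic mutation of expressed V genes can also move reads between relatives.

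Of the 185 genes, 113 are annotated as V genes, 70 as V pseudogenes and 2 with another V type. They fall into 16 families. In each library 131 had at least 1 UMI, 125 of them in both, and 48 had none in either. In each library 70 genes led at least 1 plasma barcode, 59 of them in both. A pseudogene led 0 barcodes in TG and 2 in WT, both Ighv1-2. Ighv UMIs made up 27.2% of immunoglobulin UMIs in TG plasma barcodes and 27.5% in WT. Plasma barcodes held 98.4% of all Ighv UMIs in TG and 98.7% in WT.

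The libraries were led by different genes. In TG, Ighv1-81 led 287 plasma barcodes, or 27.8% (interval 25.1 to 30.7%), against 9 barcodes in WT, or 0.787% (0.361 to 1.49%). In WT, Ighv1-64 led 230 barcodes, or 20.1% (17.8 to 22.6%), against 13 in TG, or 1.26% (0.672 to 2.14%). The most used gene of each library was thus rare in the other, with intervals that do not overlap. Counted in UMIs, Ighv1-81 held 29.4% of the Ighv UMIs of TG plasma barcodes and Ighv1-64 held 16.7% of those of WT.

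Several other genes were used mainly in 1 library. Ighv1-39 led 26 barcodes in TG (2.52%) and 117 in WT (10.2%). Ighv1-75 led 5 in TG (0.485%) and 89 in WT (7.79%). Ighv1-15 led 1 in TG (0.0969%) and 46 in WT (4.02%), and Ighv1-80 led 2 and 41. These genes of the large Ighv1 family were lower in TG, and for each of them the intervals of the libraries do not overlap. Ighv1-50 led 0 of 1032 barcodes in TG, which allows a share of up to 0.357%, and 22 in WT (1.92%). Ighv10-3 led 3 barcodes in TG and 18 in WT, and Ighv1-72 led 19 and 54.

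Other genes were higher in TG. Ighv1-53 led 71 barcodes in TG (6.88%) and 26 in WT (2.27%), a ratio of 3.02. Ighv1-82 led 38 in TG (3.68%) and 6 in WT (0.525%), and Ighv6-6 led 37 (3.59%) and 8 (0.6999%). Ighv3-6 led 34 barcodes in TG and 13 in WT, and Ighv9-3 led 55 and 35. Small counts stand behind the ratios of Ighv9-4 (9 in TG and 1 in WT), Ighv8-12 (11 and 2) and Ighv1-7 (10 and 2).

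A few genes were used about equally. Ighv1-26 led 56 barcodes in TG (5.43%) and 61 in WT (5.34%). Ighv1-19 led 36 in TG (3.49%) and 48 in WT (4.199%). The interval of each library covers the other's share for these genes.

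**Figure D1:**
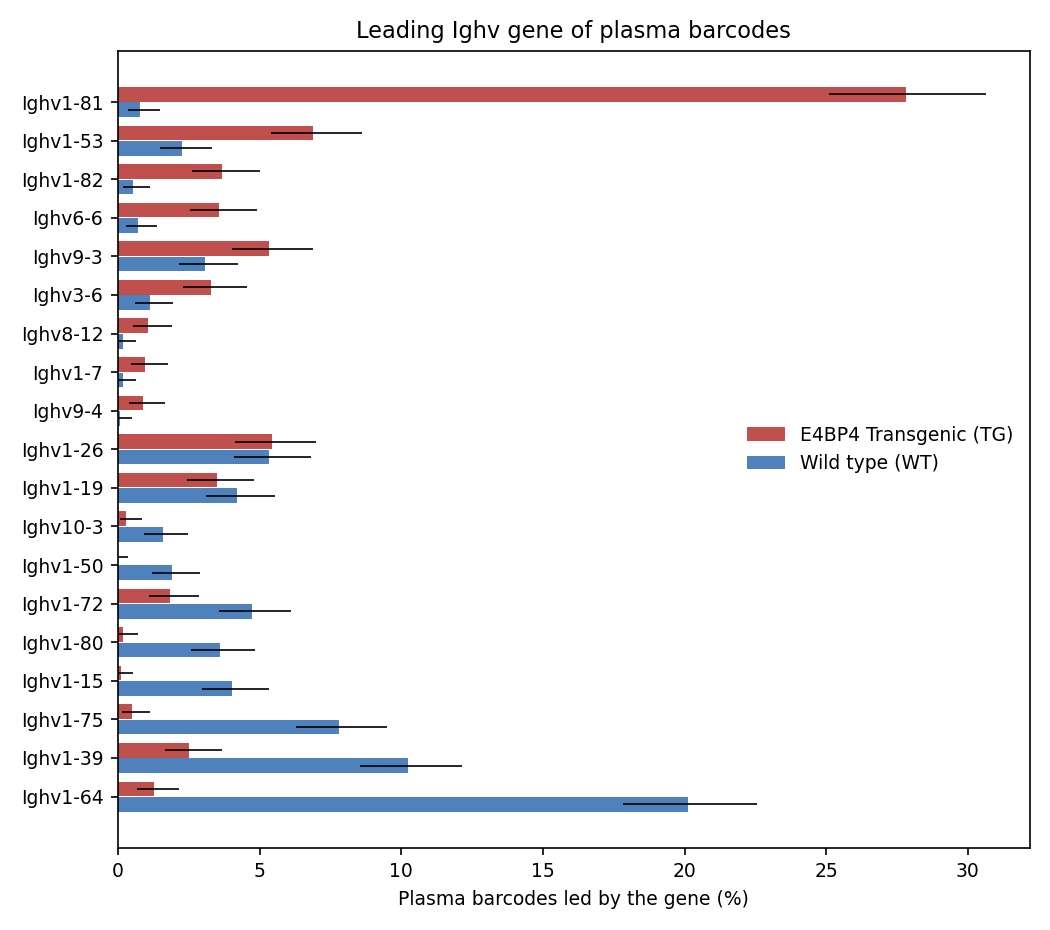
Share of plasma barcodes (%, x axis) led by each of 19 Ighv genes in the TG library (red, upper bar; 1032 barcodes) and the WT library (blue, lower bar; 1143 barcodes), with exact 95% intervals for counting error. Ighv1-81 stands out at 27.8% in TG and Ighv1-64 at 20.1% in WT, while Ighv1-26 and Ighv1-19 are close in both.

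Over the 44 Ighv genes that led at least 10 plasma barcodes in all, 19 were at least 1.5-fold higher in TG and 19 at least 1.5-fold lower, or 86.4% past the fold. The same count over light chain V genes gave 82.2% past the fold (37 of 45), so the Ighv share is near that of the other V genes. In UMIs summed over all plasma barcodes and scaled without immunoglobulin segments, 17.0% of 10670 genes with at least 50 UMIs were 1.5-fold higher in TG and 3.56% lower (1818 and 380 genes). With median-of-ratios scaling, which moved all log2 ratios by 0.19, the split was 1130 higher and 768 lower. Of the 99 Ighv genes in that comparison, 41 were higher and 42 lower, with a median log2 ratio of -0.08 against 0.10 over all genes. With median-of-ratios scaling 40 were higher and 42 lower. Light chain V genes gave 39 higher and 42 lower of 99. In these libraries the shares of V genes past the fold, for both chains and in both directions, lay above the shares over all genes.

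Genes that transcribe or diversify immunoglobulin loci were mostly within the fold. Of 20 listed, 16 had at least 50 UMIs, 3 were 1.5-fold higher in TG (18.8%, near the 17.0% over all genes) and 0 lower. With median-of-ratios scaling 0 of the 16 were past the fold either way. The 3 were Pax5, a B cell identity factor, at 11.1 CPM in TG and 6.53 CPM in WT; Ebf1, another, at 88.2 and 57.5 CPM; and Ikzf1, a lymphoid factor, at 53.4 and 34.5 CPM. Pou2af1, a coactivator that works at octamer sites of V promoters, stood at 349 CPM in TG and 378 CPM in WT. Prdm1 and Irf4, which drive the plasma cell state, had ratios of 1.09 and 0.98. Rag1 and Rag2, which cut V segments for joining, had 0 UMIs in both.

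Usage was concentrated in both libraries. The most used 3 genes led 40.1% of plasma barcodes in TG and 38.2% in WT, and the most used 10 led 64.2% and 65.4%. In each library 6 genes covered 50% of the barcodes. The effective number of genes, the inverse of the chance that a random pair of barcodes shares its leading gene, was 10.4 in TG and 14.03 in WT. The corresponding number for light chain V genes was 13.9 in TG and 14.1 in WT. For combinations of heavy gene, light gene and isotype it was 31.2 in TG and 23.6 in WT. Of these combinations, 32 covered 50% of barcodes in TG and 12 did in WT. Which library was the more concentrated thus depended on the unit counted.

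The most used heavy chain V genes stood mainly with 1 or a few light chain V genes. In TG, Ighv1-81 stood with Igkv1-117 in 170 barcodes (59.2% of those it led) and with Igkv1-110 in 72 (25.1%). The first pair occurred in 2 WT barcodes and the second in 0. In WT, Ighv1-64 stood with Igkv4-59 in 182 barcodes (79.1% of those it led), a pair seen in 0 TG barcodes. Ighv1-39 stood with Igkv1-117 in 106 WT barcodes (90.6% of those it led) and in 0 TG barcodes. The same light chain gene thus accompanied the most used heavy chain gene of TG and another heavy chain gene in WT.

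Of the genes with similar shares in both libraries, Ighv1-19 had different partners. It stood mostly with Igkv16-104 in TG (19 of 36 barcodes) and with Igkv10-94 in WT (35 of 48), and neither pair occurred in the other library. Ighv1-26 stood with Iglv1, a lambda V gene, in 14 TG and 38 WT barcodes, the 1 pair with at least 10 barcodes in both libraries. Ighv6-6 stood with Igkv2-137 in 24 TG and 0 WT barcodes. Ighv1-75 stood with Igkv4-61 in 0 TG and 52 WT barcodes, Ighv1-15 with Igkv1-117 in 0 and 40, and Ighv1-72 with Igkv8-19 in 0 and 31.

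In all, 295 heavy-light pairs were seen in TG and 266 in WT, of which 151 and 147 occurred once. The pairs with at least 10 barcodes, 13 in TG and 16 in WT, held 38.4% and 55.7% of barcodes. The 49 pairs seen in both libraries held 32.5% of TG and 15.7% of WT barcodes. Of the 335 TG barcodes in them, 170 held Ighv1-81 with Igkv1-117, a pair with 2 barcodes in WT. When each combination of heavy gene, light gene and isotype was counted once per library, 318 combinations remained in TG and 274 in WT. The most used gene then led 7.55% in TG (Ighv1-81) and 6.204% in WT (Ighv1-64). The effective number of genes was 39.7 in TG and 46.1 in WT. The number of genes past 1.5-fold fell to 11 of the 21 that still led at least 10 combinations, with 5 higher and 6 lower in TG. The V genes are only a stand-in for clones, since the junction sequences were not analysed here.

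**Figure D2:**
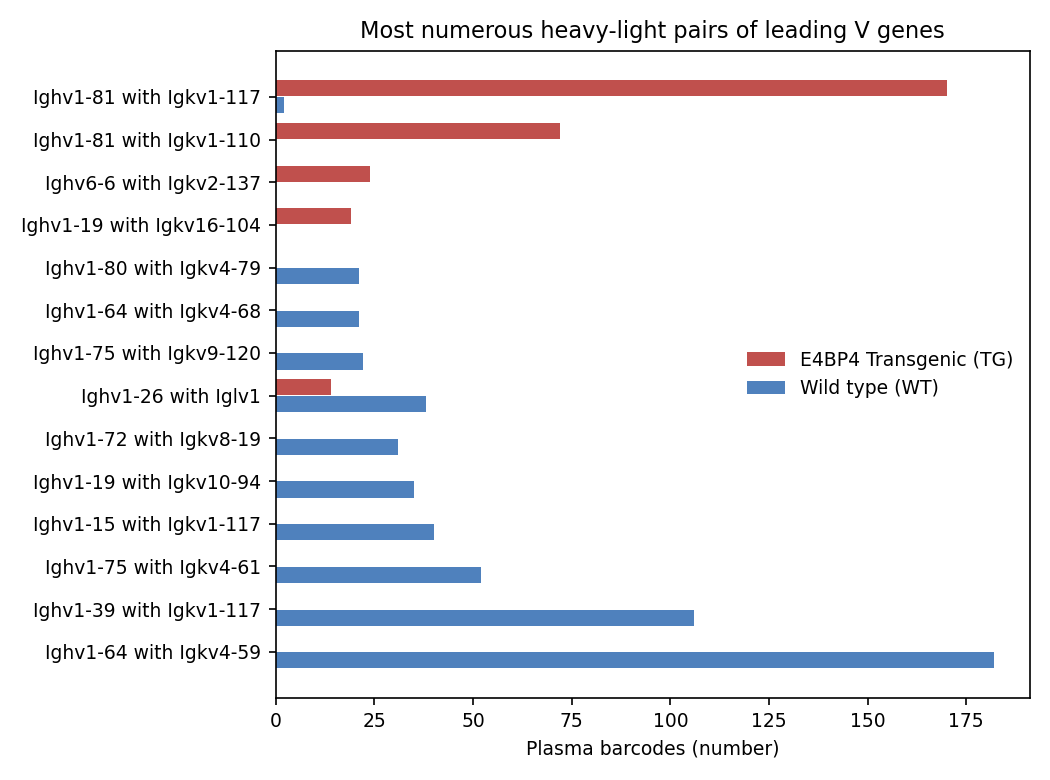
Number of plasma barcodes (x axis) with each of the 14 most numerous pairs of leading heavy and light V genes, in TG (red, upper bar) and WT (blue, lower bar). The pair of Ighv1-26 with Iglv1 is numerous in both, at 14 and 38 barcodes, and each other pair shown has at most 2 barcodes in 1 of the libraries.

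The main constant gene was Igha in 95.2% of counted barcodes in TG (982; interval 93.7 to 96.4%) and in 97.6% in WT (1116; 96.6 to 98.4%). Ighv1-81 led 268 of the Igha barcodes in TG, and Ighv1-64 led 229 of those in WT. Ighg2c, an IgG constant gene, was the main one in 22 TG barcodes and 0 WT barcodes, and 13 of those 22 were led by Ighv1-81. Among all 50 TG barcodes with another main constant gene than Igha, Ighv1-81 led 19, or 38.0% (24.7 to 52.8%). The 27 such WT barcodes were spread over 20 genes, with Ighv1-5 leading 4. Ighm, the constant gene of IgM, was the main one in 9 TG and 13 WT barcodes.

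By family, Ighv1 led 69.2% of plasma barcodes in TG (66.3 to 72.0%) and 80.1% in WT (77.6 to 82.3%). The next was Ighv9 in TG, with 6.30%, against 3.32% in WT. In WT it was Ighv5, with 4.02%, against 3.97% in TG. Ighv14 led 3.59% in TG and 1.05% in WT, Ighv8 2.81% and 0.525%, and Ighv2 3.78% and 1.14%. Ighv10 was lower in TG, with 0.484% against 2.27% in WT. The Ighv11, Ighv12, Ighv15 and Ighv16 families led 0 barcodes in both, which allows up to 0.357% each in TG and 0.322% in WT. By position in the locus, the 47 genes nearest the D segments led 11.9% in TG and 7.09% in WT, and the 46 farthest led 45.4% in both.

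Most plasma barcodes had 1 dominant Ighv gene. The leading gene held a median of 99.4% of a barcode's Ighv UMIs in both libraries. It held at least 80% in 877 TG barcodes (85.0%) and 1074 WT barcodes (94.0%). A second gene with at least 25% of the UMIs of the first was present in 140 TG barcodes (13.6%; interval 11.5 to 15.8%) and 64 WT barcodes (5.60%; 4.34 to 7.09%). These barcodes were larger, with a median of 27886 UMIs in TG and 42428 in WT, against 20995 and 23704 in the others. Their median immunoglobulin share was 39.4% in TG, against 52.2% in the others, and 54.3% in WT, against 55.7%. Their median Ighv UMIs were 2701 in TG, against 2340.5, and 5181.5 in WT, against 3039. Without the 25% rule, 578 TG and 725 WT barcodes not led by their library's most used gene had at least 1 UMI of a second gene. In these, the second gene was Ighv1-81 in 39.4% of TG barcodes and Ighv1-64 in 21.4% of WT barcodes. It was the nearest relative of the leading gene in 4.15% and 6.90%.

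The share of the most used gene depended on the kind of barcode. Ighv1-81 led 52 of the 106 counted TG barcodes with 5 to 20% immunoglobulin UMIs, or 49.1% (39.2 to 59.0%). It led 24.0% (19.8 to 28.5%) of those with 20 to 50% and 26.4% (22.7 to 30.3%) of those with 50% or more. In the same bands Ighv1-64 led 13.0%, 19.5% and 20.99% of WT barcodes. Among TG barcodes with at least 1000 Ighv UMIs Ighv1-81 led 183 of 711, or 25.7%. Ighv1-64 led 180 of 911 such barcodes in WT, or 19.8%. Among barcodes with 20 to 100 Ighv UMIs, Ighv1-81 led 48.8% in TG (61 of 125) and Ighv1-64 led 32.7% in WT (16 of 49). These shares were above those of the richest barcodes in both libraries, with intervals that overlap in WT (19.9 to 47.5% against 17.2 to 22.5%) and not in TG (39.8 to 57.9% against 22.6 to 29.1%). The most used gene of each library was therefore also the most used among its richest barcodes.

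The deposited B cell cluster held 2236 cells in TG and 2410 in WT, with medians of 2235 and 2445 UMIs per cell. Ighv RNA was sparse there, with a median of 7 Ighv UMIs per cell in TG and 8 in WT. Of the cells with at least 2 Ighv UMIs, 672 in TG and 564 in WT had a tie for the first gene and were left out. Those with a single leading gene numbered 1492 in TG and 1805 in WT. Ighv1-81 led 408 of these in TG (27.4%) and 59 in WT (3.27%). Ighv1-64 led 48 in TG (3.22%) and 222 in WT (12.3%). The effective number of genes was 11.3 in TG and 28.0 in WT. Of 61 genes leading at least 10 cells, 12 were 1.5-fold higher in TG and 18 lower, or 49.2% past the fold. Over light chain V genes of the same cells, 35.5% were past the fold (22 of 62).

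Ighv RNA was found in most cells of every cluster. At least 1 Ighv UMI was found in 99.3% of TG and 99.7% of WT B cells. It was also found in 90.2 to 98.7% of cells of every other cluster in either library, including macrophages, T cells and neutrophils, which do not make antibody. The most abundant Ighv gene of each of the 10 clusters was Ighv1-81 in TG and Ighv1-64 in WT. The B cell marker Cd79a stood at 3799 CPM in TG and 3957 CPM in WT B cells, against at most 518 and 512 CPM in clusters 1 to 6. In clusters 1 to 6, Ighv UMIs by gene followed those of the plasma barcodes of the same library. Pearson's r was 0.97 over 113 genes in TG and 0.96 over 117 genes in WT, and Spearman's rho 0.83 and 0.87. B cells followed the plasma barcodes too, with r = 0.96 in TG and 0.93 in WT and rho = 0.81 and 0.83. These correlations are across genes of 1 library and describe it only.

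The leading gene of a B cell is therefore to be read against that background. Ighv1-81 had 1.48 UMIs per B cell in TG, within the 1.09 to 1.53 of clusters 1 to 6 (4017 cells). In WT it had 0.1996 UMIs per B cell, above the 0.0361 to 0.0791 of clusters 1 to 6 (3426 cells). Ighv1-64 had 0.190 UMIs per B cell in TG, above the 0.0619 to 0.132 of those clusters, and 1.081 in WT, above 0.681 to 0.944. Cluster 7, whose cells were small (medians of 889 UMIs in TG and 848 in WT), stood higher. It had 1.95 Ighv1-81 UMIs per cell in TG, and 1.11 Ighv1-64 UMIs per cell in WT. WT cluster 9 had 1.13 Ighv1-64 UMIs per cell. For each library's most used gene, the B cells thus did not stand above every other cluster. Of all Ighv UMIs, Ighv1-81 made up 19.8% in TG B cells and 23.8 to 28.4% in the other TG clusters.

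**Figure D3:**
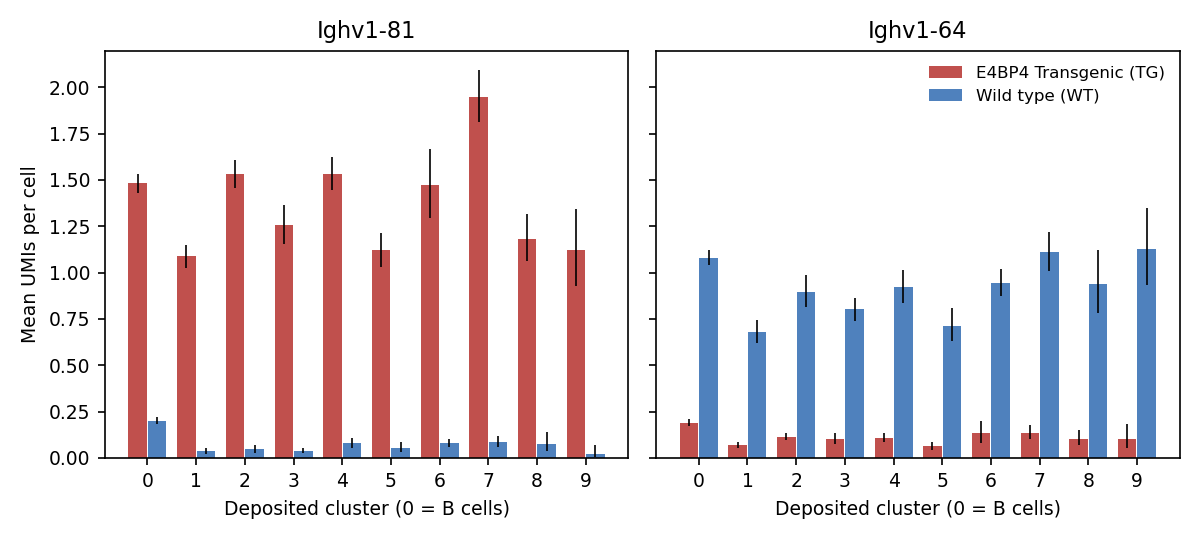
Mean UMIs per cell (y axis) of Ighv1-81 (left) and Ighv1-64 (right) in the 10 deposited clusters (x axis; 0 is B cells), in TG (red, left bar) and WT (blue, right bar), with exact 95% Poisson intervals. Ighv1-81 is at 1.09 to 1.53 UMIs in clusters 1 to 6 of TG, 1.48 in its B cells and 1.95 in cluster 7, and Ighv1-64 is the higher of the pair in every WT cluster.

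The UMIs per B cell above the mean of clusters 1 to 6, a measure and a set of clusters chosen after the data were seen, gave a different picture of usage. Ighv RNA averaged 7.49 UMIs per B cell in TG against 4.92 per cell in clusters 1 to 6. In WT it averaged 8.48 against 4.63. Cluster 7, which this background leaves out together with clusters 8 and 9, averaged 7.76 in TG and 6.93 in WT. The effective number of genes in this excess, here the inverse of the summed squared UMI shares, was 37.9 in TG and 40.0 in WT. The gene with the largest share was Ighv9-3 in TG (6.43%, against 4.78% in WT) and Ighv1-64 in WT (6.56%, against 3.79% in TG). Ighv1-81 was second in TG, with 6.07%, against 3.76% in WT. Its place depended on the background. Over clusters 1 to 9 it held 5.06% in TG, behind Ighv6-3 at 5.18%, and 3.94% in WT. In each excess, genes at or below the background were set to 0. Cluster 7 of TG held more Ighv UMIs per cell than the B cells, so only genes above it share that excess. Over cluster 7 alone Ighv1-81 held 0% in TG and 5.87% in WT. With clusters 1 to 6 again as background, other genes were closer between the libraries. Ighv3-6 held 4.80% in TG and 4.46% in WT, Ighv1-26 4.47% and 4.54%, Ighv1-82 3.73% and 3.15%, and Ighv1-15 3.25% and 3.36%. For Ighv1-15 the picture depended on the measure. By leading gene it led 29 B cells in TG (1.94%) and 94 in WT (5.21%), lower in TG as in plasma barcodes, and in WT its 0.508 UMIs per B cell stood against 0.312 to 0.468 in clusters 1 to 6.

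Across 119 genes, the excess shares of the libraries followed each other, with Pearson's r = 0.88 and Spearman's rho = 0.90. With clusters 1 to 9 as background the values were 0.90 and 0.88. With cluster 7 alone they were 0.40 and 0.12 across 112 genes, so the likeness depends on the background taken. In TG that background held more Ighv UMIs per cell than the B cells, and genes not above it were set to 0. Cluster 7 held 0.427 UMIs per cell of Ighd, the constant gene of IgD, in TG and 0.273 in WT. The highest of clusters 1 to 6 held 0.118 and 0.160, and the B cells 1.155 and 0.989. Whether cluster 7 includes B cells was not tested. For the shares of B cells led, with no background taken off, Pearson's r was 0.36 and Spearman's rho 0.88 across 95 genes. For the shares of plasma barcodes led, the values were 0.09 and 0.46 across 81 genes. For distinct combinations in plasma barcodes they were 0.55 and 0.55 across the same number of genes. Of the 36 genes with at least 1% of the excess on average, 23 were within 1.5-fold between the libraries, 5 were higher in TG and 8 lower. The extremes were Ighv7-3, at 0.439% in TG and 2.36% in WT, and Ighv5-4, at 1.97% and 0.862%. Distinct combinations followed the B cell excess of their own library with r = 0.79 in each and rho = 0.72 in TG and 0.79 in WT (108 and 115 genes). For plasma barcodes counted singly, r was 0.60 in TG and 0.68 in WT, and rho was 0.71 and 0.76.

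**Figure D4:**
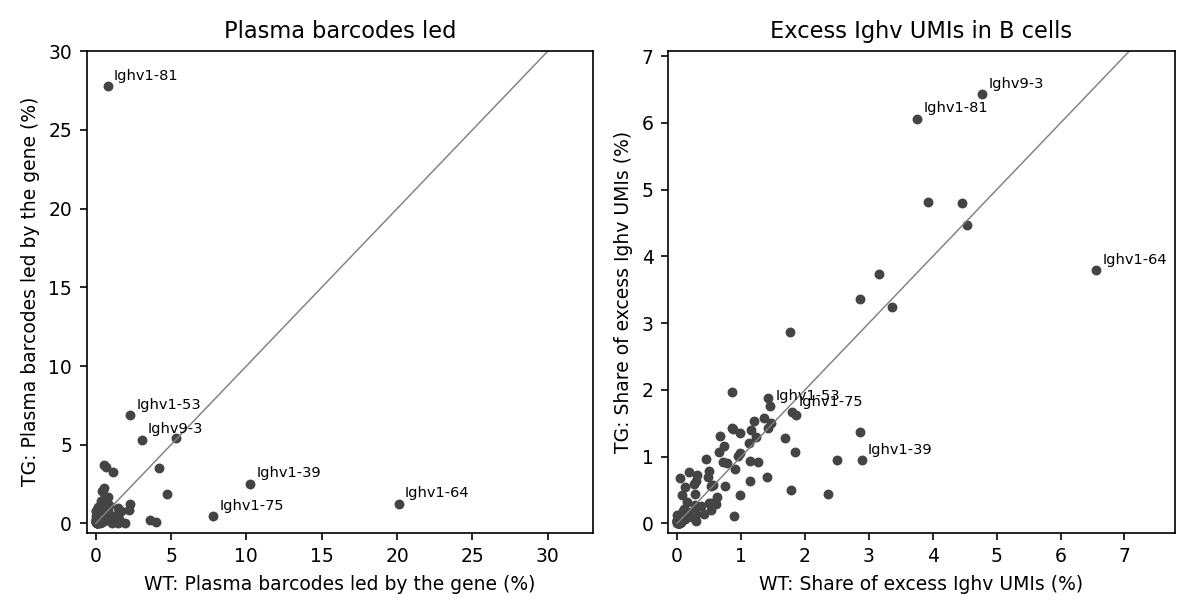
Usage of each Ighv gene in TG (y axis, %) against WT (x axis, %), as the share of plasma barcodes led (left panel) and as the share of Ighv UMIs per B cell above clusters 1 to 6 (right panel); each point is a gene and the line marks equal shares. Ighv1-81 and Ighv1-64 lie far from the line in plasma barcodes, and most genes lie near it in the B cell excess.

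Within each library, plasma and B cell usage were compared over genes that led at least 10 barcodes or cells. In TG, 14 of 57 genes were 1.5-fold higher in plasma barcodes and 23 lower. In WT, 11 of 56 were higher and 29 lower. Over light chain V genes the counts were alike, with 13 higher and 22 lower of 51 in TG and 15 higher and 29 lower of 58 in WT. In both libraries together 5 genes were higher in both and 7 lower in both, of 50 (24.0%). Over light chain V genes the share past the fold the same way in both libraries was 33.3% (16 of 48). Those higher in both were Ighv1-39, Ighv1-53, Ighv1-63, Ighv1-72 and Ighv1-19, all of the Ighv1 family. Ighv1-19 led 3.49% of plasma barcodes and 1.47% of B cells in TG, and 4.199% and 1.83% in WT. Ighv1-63 led 12 plasma barcodes and 4 B cells in TG, and 7 and 4 in WT. Among those lower in both were Ighv3-1, with 1 plasma barcode and 16 B cells in TG and 0 and 12 in WT, and Ighv9-1, with 1 and 20 in TG and 2 and 17 in WT. Ighv2-5 led 4 plasma barcodes and 18 B cells in TG, and 1 and 12 in WT. Ighv2-3 led 5 and 11 in TG, and 1 and 16 in WT, and Ighv8-8 led 15 and 33 in TG, and 4 and 29 in WT. These B cell counts were not corrected for the Ighv RNA found in the other clusters, and its part in the ratios was not tested.

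**Figure D5:**
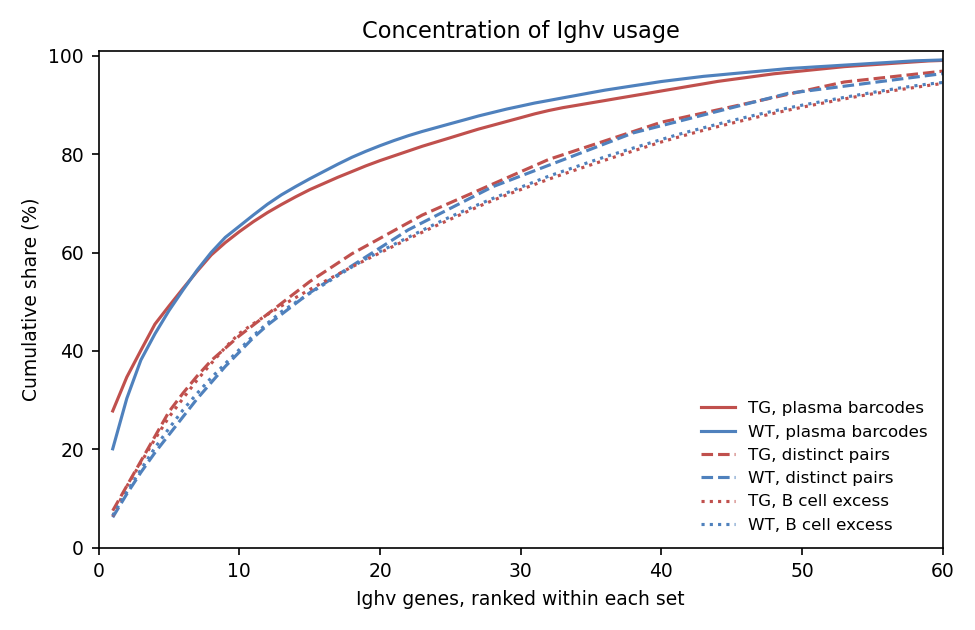
Cumulative share (%, y axis) of usage held by the most used Ighv genes (x axis, ranked within each set) in plasma barcodes (solid), distinct heavy-light-isotype combinations (dashed) and the B cell excess (dotted), for TG (red) and WT (blue). The first 10 genes hold 64.2% in TG and 65.4% in WT plasma barcodes, 43.1% and 39.8% of combinations, and 43.6% and 40.3% of the B cell excess.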

How the data were processed

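Per the labels, live CD45+ colon cells were made into 10x Genomics 5′ v1.1 libraries. Per the submitters' processing notes, Cell Ranger 5.0.0, Seurat 4.0 and mm10 were used. The deposited tables hold raw UMI counts per gene and barcode. The authors' cell table holds clusters and, per the file headers, the percent of each cell's UMIs on mitochondrial and immunoglobulin genes for 7026 TG and 6466 WT cells. Other filters are not given in the sources used here. Members, gene lists and comparisons were chosen with earlier results of these data known. From the counts, the leading Ighv gene of each barcode was taken, and ties were left out. Plasma barcodes had 5 ties in TG and 1 in WT, and B cells had 672 and 564. With 392 immunoglobulin segments left out of the scaling total, CPM were computed from summed UMIs. The Nfil3 CPM of the macrophage cluster used the full total, with these segments included. Ratios with 0 barcodes used a floor of 3. Genes were named by rule: the 12 most used in plasma barcodes, the 6 highest and 6 lowest ratios, the 8 most used in B cells, and the 5 highest and 5 lowest plasma-to-B ratios; Ighv7-3 and Ighv5-4, extremes of the B cell excess, and the light chain and isotype partners were chosen after their values were seen. No doublet caller was run; second V genes are reported instead. Cell types of other clusters come from marker lists. GENCODE M21 matched all 185 gene IDs. Counting scripts were tested on simulated data. Tools were Python 3.11.15, numpy 2.4.6, pandas 2.3.3, scipy 1.17.1 and edlib 1.3.9.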

Additional observations from a re-analysis of the deposited data

Results flagged for a closer look

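For 4 genes the usage ratio of TG over WT was past 1.5-fold one way in plasma barcodes and the other way in B cells. The difference between the ratios was not tested, and B cell usage was not corrected for the Ighv RNA found in the other clusters. Ighv6-6 led 37 plasma barcodes in TG and 8 in WT (ratio 5.12), and 11 and 25 B cells (ratio 0.532). Ighv14-3 led 21 plasma barcodes in TG and 5 in WT (ratio 4.65), and 2 and 8 B cells (ratio 0.302). Ighv1-22 led 17 and 9 plasma barcodes (ratio 2.09), and 12 and 26 B cells (ratio 0.558). Ighv5-4 led 0 plasma barcodes in TG and 17 in WT, so its ratio was at most 0.196. It led 22 and 11 B cells (ratio 2.42). For all 4 genes the B cell intervals of the libraries overlap. In the B cell excess over clusters 1 to 6, Ighv14-3 held 0.56% in TG and 0.54% in WT, and Ighv1-22 0.92% and 1.26%. Ighv6-6 held 0.497% and 1.78%, and Ighv5-4 1.97% and 0.862%.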

How the results depend on the processing

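Of 82 recomputed values of 14 results, 63 stayed within 1.5 times a count or within the interval or spread of a share, and none of the results changed its most used gene except as named here. With each combination of heavy gene, light gene and isotype counted once, the share of the most used gene was 7.55% in TG and 6.204% in WT, the effective number was 39.7 and 46.1, and 11 genes were past 1.5-fold. With a leading gene holding at least 80% of Ighv UMIs, Ighv1-81 led 24.97% in TG. With genes leading at least 20 barcodes, 23 of 26 genes were past 1.5-fold in plasma barcodes and 6 of 26 between plasma barcodes and B cells. Over all genes, 4499 of 15527 were past 1.5-fold with 1 UMI in each library as the minimum. With at least 200 UMIs 1070 of 7530 were, against 2198 of 10670 in the main setting. In B cells, 5 of 6 genes were past 1.5-fold when the leading gene held at least 80%. Alternatives chosen after seeing the data gave more. Without the most numerous heavy-light pair of each library, the most used gene was Ighv1-81 at 13.6% in TG and Ighv1-39 at 12.2% in WT, and the effective number was 21.7 in TG and 21.6 in WT. B cells whose leading gene had at least 5 UMIs and 50% of Ighv UMIs gave 11 of 28 genes past 1.5-fold. For the TG B cell excess, the effective number was 37.9 over clusters 1 to 6 and 37.7 over clusters 1 to 9. Over cluster 7 alone it was 27.6. From leading genes it was 11.3, a measure over cells rather than over UMI shares, so these values differ in kind. The gene with the largest share of that excess also changed. In TG it was Ighv9-3 over clusters 1 to 6 and over clusters 1 to 9, and Ighv6-3 over cluster 7, against Ighv1-81 from leading genes. In WT it was Ighv1-64 over clusters 1 to 6 and over clusters 1 to 9, and Ighv1-81 over cluster 7. The cause of these moves was not tested. Without the barcode sequences found in both libraries, 38 genes were past 1.5-fold, as in the full set. No paired analysis was possible because each genotype has 1 library.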
